A study of Saccharomyces cerevisiae with 11 samples.

Results

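The genes *RNH1*, *RNH201*, *RNH202*, *RNH203*, *TOP1* and *TOP2* encode the yeast enzymes that remove RNA from RNA-DNA hybrids or relax DNA ahead of and behind the transcribing polymerase. They were taken by gene symbol, and each of these 6 genes had 1 probe set among the 5449 *S. cerevisiae* genes measured. Total RNA of *rna14-1*, *rna15-1* and wild-type cells was hybridised to 11 Affymetrix arrays, with 3 arrays of *rna14-1*, 3 of *rna15-1* and 5 of the wild type. Rna14 and Rna15 are subunits of cleavage factor I (CFI), the complex that takes part in 3′-end cleavage of the nascent transcript and in transcription termination, and each mutant carries the allele it is named after. All strains are W303 derivatives, the wild type being W303-1B. They share the alleles *ade2-1*, *trp1-1*, *ura3-1* and *his3-11,15* and a mutant allele of *LEU2*. Cultures were grown at 30°C to mid-log phase, in YPAD according to the labels and in YEPD according to the methods. The labels call the arrays biological replicates, and the sources used here do not say whether a strain's cultures came from several clones, so the p-values measure the spread between these arrays.

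When nascent RNA pairs again with its template, the other DNA strand is displaced and an R-loop forms. RNase H enzymes cut the RNA of such hybrids. Rnh1 (RNase H1) acts alone, whereas Rnh201, Rnh202 and Rnh203 form the trimeric RNase H2, which also cuts at lone ribonucleotides that DNA polymerases leave in the genome. Top1 nicks 1 strand to release the supercoils that transcription and replication produce, and it can also cut DNA at ribonucleotides that RNase H2 did not remove. Top2 passes a duplex through a break in another one, relaxes supercoils and unlinks replicated chromosomes, which makes it essential.

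The deposited values are log2 intensities from the robust multiarray average method, and the median gene lay between 10.34 and 10.40 on every array. The arrays of *rna15-1* replicates 1 and 2 correlated across genes with r = 0.997, and replicate 3 with them with r = 0.964 to 0.965. With the *rna14-1* arrays, replicate 3 had r = 0.9389 to 0.9465, and replicates 1 and 2 had 0.9011 to 0.9181. With the wild-type arrays, replicate 3 had 0.8435 to 0.8488, and replicates 1 and 2 had 0.8935 to 0.9045. Replicate 3 thus lay nearer to *rna14-1* and farther from the wild type than replicates 1 and 2. Wild-type replicates 1 and 2 correlated with replicates 3 to 5 with r = 0.981 to 0.989, below the values within each set, which were 0.991 to 0.996. Transcripts of both mutated genes were higher in both mutants (log2 fold change ± standard error). *RNA14* had 1.18 ± 0.09 in *rna14-1* and 0.80 ± 0.09 in *rna15-1*. *RNA15* had 0.84 ± 0.08 in *rna14-1* and 0.66 ± 0.08 in *rna15-1*. Between the mutants, *RNA14* was lower on every *rna15-1* array than on any *rna14-1* array. The difference was -0.38, which narrowly missed an adjusted p under 0.01 (adjusted p = 0.011, limma). For *RNA15* the mutants overlapped. The genotype field names MATa for all strains, yet the 5 alpha-specific genes examined lay between 11.42 and 13.47 on the *rna14-1* arrays, between 12.96 and 14.21 on the *rna15-1* arrays and between 12.02 and 13.45 on the wild-type arrays, which goes against that label. The 7 a-specific genes lay between 8.31 and 12.27 in *rna14-1*, between 8.46 and 12.19 in *rna15-1* and between 5.35 and 8.30 in the wild type. All 7 were higher in both mutants (6 in *rna14-1* after quantile normalisation, and 6 in *rna15-1* without its replicate 3), and the part of this difference in the results below was not tested. The arrays measured RNA of whole cultures, in which fewer cells expressing a gene and less RNA per cell cannot be told apart.

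All 3 genes of RNase H2 fell in *rna14-1*, whereas *RNH1*, *TOP1* and *TOP2* did not pass the test there. In *rna15-1*, *RNH202* and *TOP1* fell, and the other 4 genes did not pass. No gene of the 6 rose in either mutant. Rose and fell stand here for a Benjamini-Hochberg adjusted p under 0.01 from limma, fitted on all 5449 genes and all 11 arrays, so that both mutants were set against the same wild-type arrays. By this measure 29.5% of all genes fell and 32.8% rose in *rna14-1*, and 24.7% fell and 28.2% rose in *rna15-1*. The counts of 3 and 2 of 6 genes are to be read against these shares, which are large. The median log2 fold change of the 6 genes was -0.49 in *rna14-1*, where that of all genes was 0.00, and -0.18 in *rna15-1*, where that of all genes was 0.03.
The study's methods also asked for a B-statistic over 2, a mean log2 intensity A over 7 and more than a 2-fold change. With these, *RNH202* in *rna14-1* was the 1 call among the 6 genes, where 7.96% of all genes were called lower and 10.1% higher. No call was made among them in *rna15-1*, where 5.32% of all genes were called lower and 6.53% higher.
On the arrays themselves, 3 genes lay lower on every *rna14-1* array than on any wild-type array, as did 36.1% of all genes, and none lay higher, as did 37.7%. On the *rna15-1* arrays 3 genes lay below all wild-type arrays, as did 29.1% of all genes, and none lay above, as did 32.6%.

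**Figure D1:**
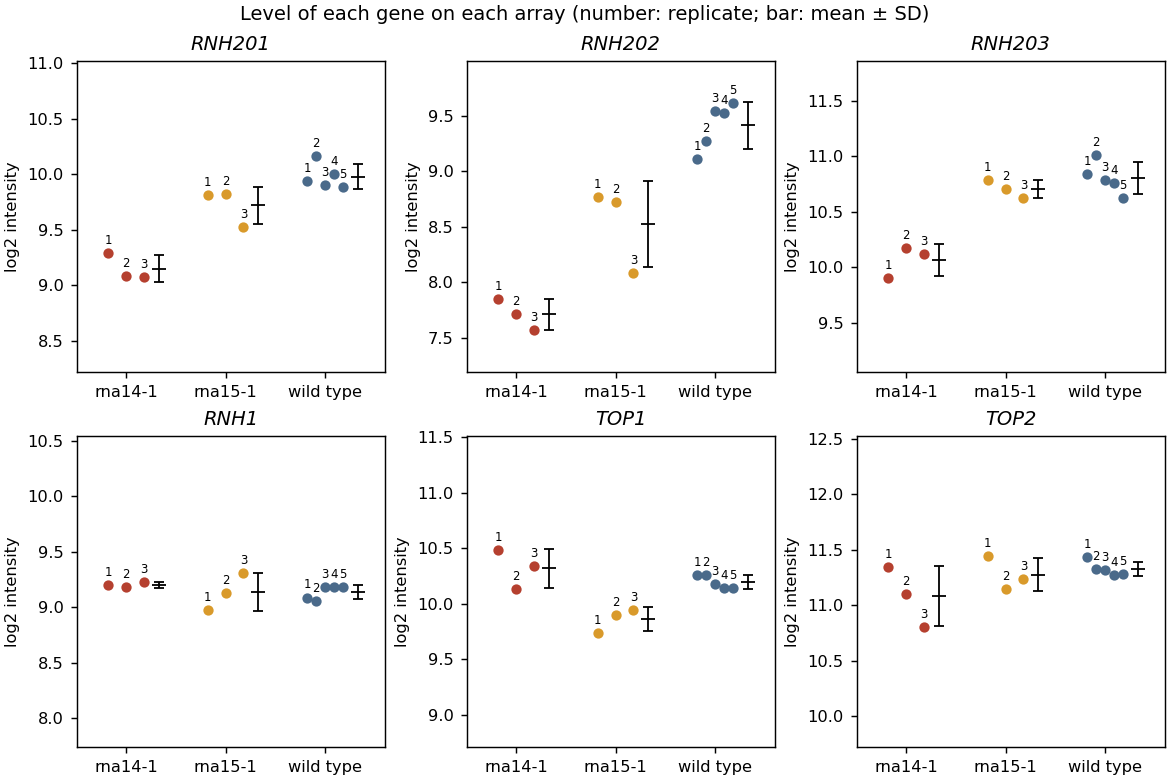
Log2 intensity of each gene on each array, by strain, with the replicate number above each point and the mean ± SD beside each group; every panel spans the same number of log2 units. The 3 RNase H2 genes lie lowest on the *rna14-1* arrays and *TOP1* lies lowest on the *rna15-1* arrays, while the strains overlap for *RNH1* and *TOP2*.

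*RNH202* encodes a non-catalytic subunit of RNase H2 and had the largest change of the 6 genes in each mutant. Its log2 intensity was 7.85, 7.71 and 7.57 on the *rna14-1* arrays, 8.76, 8.72 and 8.08 on the *rna15-1* arrays, and 9.11, 9.27, 9.54, 9.52 and 9.62 on the wild-type arrays. No 2 strains overlapped, with *rna14-1* lowest and the wild type highest. The level averaged 7.71 ± 0.14 in *rna14-1* (SD, n = 3), 8.52 ± 0.38 in *rna15-1* (SD, n = 3) and 9.41 ± 0.21 in the wild type (SD, n = 5). In *rna14-1* this was a log2 fold change of -1.70 ± 0.17 (standard error), or 3.25-fold lower (adjusted p = 5.4e-06, limma), the 123rd lowest of 5449 genes, and 8.46% of genes changed by more in either direction. The *rna15-1* cells had a log2 fold change of -0.89 ± 0.17 for it, or 1.85-fold lower (adjusted p = 7.9e-04, limma).
The arrays that stood apart across all genes also stood apart for *RNH202*. It was 0.66 lower on *rna15-1* replicate 3 than the mean of replicates 1 and 2, and 13.6% of genes differed more between these arrays. Without replicate 3 the log2 fold change of *rna15-1* was -0.67 ± 0.13 (adjusted p = 0.0016, limma). Wild-type replicates 1 and 2 averaged 9.19 and replicates 3 to 5 averaged 9.56, without overlap. Against wild-type replicates 1 and 2 alone, the change of *rna14-1* was -1.48, with a B-statistic of 1.14 that missed the threshold of the methods (adjusted p = 5.1e-04, limma), and that of *rna15-1* was -0.67, which did not pass (adjusted p = 0.025). This split of the wild type was not particular to *RNH202*. Replicates 3 to 5 also did not overlap replicates 1 and 2 for *RNH1*, *RNH203*, *TOP1* and *TOP2*. Their means differed by 0.11, -0.21, -0.11 and -0.09. The share of all genes without overlap between these sets was not counted, so the split cannot be read as a trait of these genes.

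*RNH201* encodes the catalytic subunit. Its log2 intensity was 9.29, 9.08 and 9.07 for the *rna14-1* arrays, 9.81, 9.82 and 9.53 for the *rna15-1* arrays, and 9.93, 10.17, 9.90, 10.00 and 9.88 for the wild-type arrays. All *rna14-1* arrays lay below all others, while replicates 1 and 2 of *rna15-1* came close to the lowest wild-type array. The level averaged 9.15 ± 0.12 in *rna14-1*, 9.72 ± 0.17 in *rna15-1* and 9.98 ± 0.12 in the wild type (SD, n = 3, 3 and 5). It fell by 0.83 ± 0.10 on the log2 scale in *rna14-1*, or 1.78-fold (adjusted p = 1.8e-05, limma). The log2 fold change in *rna15-1* had a value of -0.26 with a 95% interval of -0.47 to -0.04 (adjusted p = 0.036, limma), and without replicate 3 it was -0.16 (adjusted p = 0.15).

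*RNH203*, the gene of the remaining subunit, was at 9.90, 10.17 and 10.12 in *rna14-1*, at 10.78, 10.71 and 10.63 in *rna15-1*, and at 10.84, 11.01, 10.79, 10.76 and 10.62 in the wild type. The *rna15-1* values lay within the range of the wild type, and those of *rna14-1* lay below both. The transcript fell by 0.74 ± 0.10 on the log2 scale in *rna14-1*, or 1.67-fold (adjusted p = 3.9e-05, limma). Its change in *rna15-1* was -0.10 with a 95% interval of -0.31 to 0.11 (adjusted p = 0.37, limma). It was -0.22 against wild-type replicates 1 and 2 only and -0.02 against replicates 3 to 5 only, and passed in neither.
The 95% intervals of the log2 fold change in *rna14-1* were -2.07 to -1.33 for *RNH202*, -1.04 to -0.62 for *RNH201* and -0.95 to -0.53 for *RNH203*. With all arrays, the interval of *RNH202* did not reach those of the genes for its partner subunits, which overlapped each other. Against wild-type replicates 1 and 2 only, the changes lay closer together. They were -1.48 ± 0.21 for *RNH202*, -0.91 ± 0.13 for *RNH201* and -0.86 ± 0.11 for *RNH203* (standard error). Each gene has its own probe set, and the sizes of the changes were not tested against each other.

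*RNH1*, the gene of the enzyme that acts on its own, was at 9.20, 9.18 and 9.23 in *rna14-1*, at 8.97, 9.13 and 9.31 in *rna15-1*, and at 9.09, 9.05, 9.19, 9.18 and 9.18 in the wild type. The 3 strains overlapped. The log2 fold change was 0.06 in *rna14-1* with a 95% interval of -0.11 to 0.24 (adjusted p = 0.47, limma). In *rna15-1* it was 0.00 with an interval of -0.17 to 0.17 (adjusted p = 0.99, limma), the *rna15-1* arrays spreading more (SD 0.17, n = 3) than those of the wild type (SD 0.06, n = 5).

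**Figure D2:**
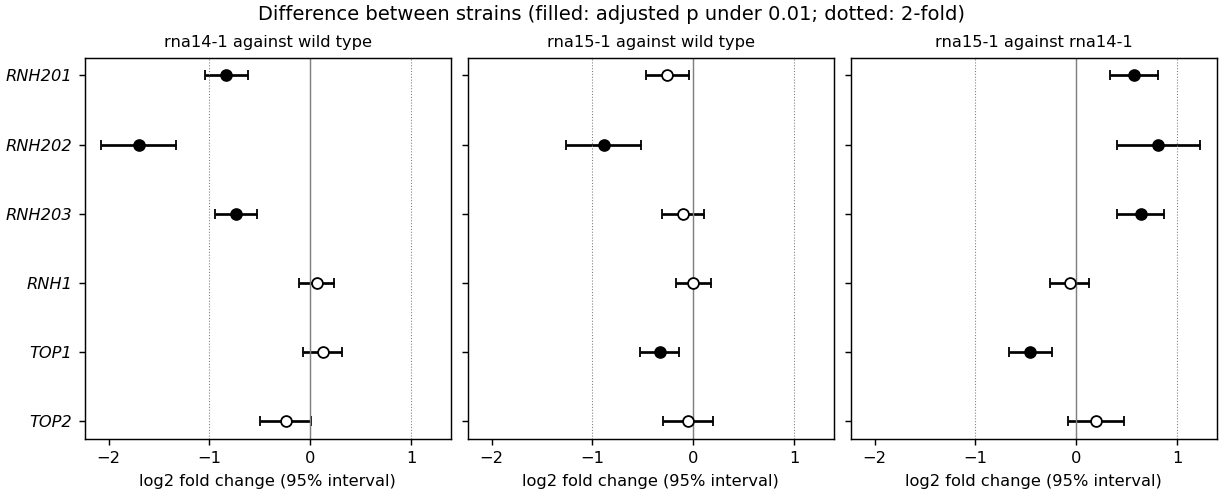
Log2 fold change of each gene with its 95% interval from limma in *rna14-1* and *rna15-1* against the wild type, and in *rna15-1* against *rna14-1*. Filled points have an adjusted p under 0.01 and dotted lines mark a 2-fold change, which of these values only that of *RNH202* in *rna14-1* passes.

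*TOP1* was at 10.48, 10.13 and 10.34 in *rna14-1*, at 9.74, 9.90 and 9.94 in *rna15-1*, and at 10.26, 10.26, 10.18, 10.14 and 10.14 in the wild type. All *rna15-1* arrays lay below all others. The transcript fell by 0.33 ± 0.09 on the log2 scale in *rna15-1*, or 1.26-fold (adjusted p = 0.0056, limma). Its change in *rna14-1* was 0.12, with a 95% interval of -0.07 to 0.31 (adjusted p = 0.22, limma). The small decrease in *rna15-1* lost the threshold when *rna15-1* replicate 1 or 2 or wild-type replicate 1, 2 or 3 was left out, with log2 fold changes of -0.35 to -0.27 and adjusted p = 0.011 to 0.032 (limma).
*TOP2* was at 11.34, 11.10 and 10.80 in *rna14-1*, at 11.44, 11.15 and 11.23 in *rna15-1*, and at 11.43, 11.33, 11.31, 11.27 and 11.28 in the wild type. Replicates of *rna14-1* were spread widely for this gene (SD 0.27, n = 3), and each mutant overlapped the wild type. The log2 fold change was -0.25 in *rna14-1*, with a 95% interval of -0.49 to 0.00 (adjusted p = 0.071, limma), and -0.05 in *rna15-1*, with an interval of -0.30 to 0.20 (adjusted p = 0.71, limma). The value in *rna14-1* was -0.38 without *rna14-1* replicate 1 and -0.10 without *rna14-1* replicate 3.

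The mutants were then compared with each other. All 3 genes of RNase H2 were higher in *rna15-1* than in *rna14-1*, where 16.0% of all genes were higher, and *TOP1* was lower, where 16.5% of all genes were lower. The same 4 genes did not overlap between the mutants, 3 of them higher on every *rna15-1* array, as were 29.5% of all genes, and 1 lower, as were 29.1%. The median difference of the 6 genes was 0.38, and that of all genes was 0.01. None of the 6 met all thresholds of the methods, by which 2.02% of all genes were higher and 2.88% lower.
*RNH203* differed by 0.64 ± 0.11, with means of 10.71 in *rna15-1* and 10.07 in *rna14-1* (adjusted p = 7.6e-04, limma). *RNH201* differed by 0.57 ± 0.11, with means of 9.72 in *rna15-1* and 9.15 in *rna14-1* (adjusted p = 0.0015, limma). *RNH202* differed by 0.81 ± 0.19, with means of 8.52 in *rna15-1* and 7.71 in *rna14-1* (adjusted p = 0.0048, limma). For *RNH202* the test was not passed when any replicate of *rna14-1* or replicate 1 or 2 of *rna15-1* was left out, with adjusted p = 0.011 to 0.023, and without *rna15-1* replicate 3 the difference was 1.03 ± 0.15 (adjusted p = 2.0e-04, limma).
*TOP1* was lower in *rna15-1*, with a difference of -0.46 ± 0.10 and means of 9.86 in *rna15-1* and 10.32 in *rna14-1* (adjusted p = 0.0030, limma). Without *rna14-1* replicate 1 or 3 or *rna15-1* replicate 1, the adjusted p was 0.013 to 0.016. *RNH1* had a difference of -0.06 with a 95% interval of -0.26 to 0.13, and *TOP2* one of 0.19 with an interval of -0.08 to 0.47 (adjusted p = 0.56 and 0.22, limma).

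The levels of the RNase H2 genes varied together over the 11 arrays, with Pearson's r of 0.926 between *RNH201* and *RNH202*, 0.916 between *RNH201* and *RNH203* and 0.805 between *RNH202* and *RNH203*. After the mean of each strain was subtracted these values were 0.441, 0.325 and -0.234, so that most of the likeness lay between strains and little among replicates. The r of *RNH1* with each of the 3 genes lay between -0.504 and -0.378, that of *TOP1* between -0.474 and -0.166, and that of *TOP2* between 0.525 and 0.663. With the strain means subtracted, *RNH1* had -0.705 with *RNH201*, -0.391 with *RNH202* and -0.575 with *RNH203*. In the same order *TOP1* had 0.197, -0.386 and -0.286, and *TOP2* had 0.396, 0.191 and -0.143. All these values are descriptions, and those without the subtraction also carry the mean that arrays of 1 strain share.
The genes most like each member in pattern were sought over the same 11 arrays. For *RNH202*, 650 genes had an r over 0.9, led by *ARF3*, a gene of an Arf family GTPase, with 0.995 and *ERV46*, a gene of vesicle transport between the endoplasmic reticulum and the Golgi, with 0.994. For *RNH201* there were 365 such genes, led by *NOB1*, the gene of an endonuclease of ribosomal RNA processing, with 0.989 and *RFU1*, an inhibitor gene of the ubiquitin hydrolase Doa4, with 0.986. *RNH203* had 161, with *YGL185C* and the forkhead transcription factor gene *HCM1* at 0.977 and 0.974. The patterns of the other 3 genes had fewer close relatives. *TOP1* had 28, led by the methionine salvage gene *ADI1* and the mannosyltransferase gene *GPI18* with 0.950 and 0.949. *TOP2* had 1, *SRS2*, a helicase gene of recombination control, with 0.911, followed by the kinase gene *GIN4* with 0.774. *RNH1* had none, the nearest being *ASI3* and *IQG1* with 0.879 each. After the mean of each strain was subtracted, r was 0.950 for *ARF3*, 0.964 for *ERV46*, 0.902 for *NOB1* and 0.854 for *RFU1*. It was 0.824 for *YGL185C*, 0.842 for *HCM1*, 0.798 for *ADI1* and 0.778 for *GPI18*. For *SRS2*, *GIN4*, *ASI3* and *IQG1* it was 0.898, 0.665, 0.865 and 0.901. These genes were picked by r over the same 11 arrays, which holds the deviations among replicates too. The choice favoured a high r after the subtraction, so these values are descriptions only. On *rna15-1* replicate 3, *RNH202* was at 8.08, against 8.76 and 8.72 on replicates 1 and 2. *ARF3* was at 9.96 there, against 10.33 and 10.30, and *ERV46* at 11.73, against 12.25 on each.

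Because both mutated proteins act in termination, the nearest measured gene on each side was read for each of the 6 genes, in the order of genes of the R64 reference. The values in this paragraph and the next are log2 fold changes against the wild type. *RNH202* lies next to *MTH1*, a gene of glucose signalling that is transcribed away from it, with 1 gene that was not measured between them. *MTH1* rose by 2.09 ± 0.09 in *rna14-1* (adjusted p = 4.3e-08, limma) and by 2.46 ± 0.09 in *rna15-1* (adjusted p = 1.1e-08). *RRP45*, an exosome gene downstream of *RNH202* on the same strand, had -0.23 in *rna14-1* and 0.16 in *rna15-1* and did not pass in either mutant. Neighbours of *RNH201* on the same strand rose in *rna14-1*, where *RNH201* fell. The upstream gene *MSK1*, for mitochondrial lysyl-tRNA synthetase, rose by 0.57 ± 0.12 there, with -0.01 in *rna15-1* (adjusted p = 0.93), and the downstream gene *LAT1*, for a subunit of pyruvate dehydrogenase, rose in each mutant, with 0.29 for *rna14-1* and 0.38 for *rna15-1*. *ACS2*, an acetyl-CoA synthetase gene downstream of *RNH203* on the same strand, fell by 0.96 ± 0.09 in *rna14-1*, where *RNH203* fell, and fell by 1.20 ± 0.09 in *rna15-1*, where *RNH203* did not pass. On the other side of *RNH203*, across 21 genes that were not measured, *YLR154C-H* had -0.82 ± 0.49 in *rna14-1* and 0.34 ± 0.49 in *rna15-1* and did not pass.

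*RPB11*, the gene of a subunit of RNA polymerase II upstream of *TOP1* on the same strand, fell by 0.66 in *rna14-1* and fell by 0.28 in *rna15-1*. *CSI2*, downstream of *TOP1* on the same strand, fell by 1.35 ± 0.30 in *rna14-1*, where *TOP1* did not pass, and had -0.07 in *rna15-1* (adjusted p = 0.83), where *TOP1* fell. Downstream of *TOP2*, *TCB2*, the gene of a membrane-tethering tricalbin, had -1.89 ± 0.09 in *rna14-1* (adjusted p = 7.4e-08, limma) and -1.63 ± 0.09 in *rna15-1* (adjusted p = 2.1e-07). The small GTPase gene *RHO2* upstream of *TOP2* rose by 0.42 in *rna15-1*, with 0.07 in *rna14-1*. Upstream of *RNH1*, *TRI1* fell by 0.61 in *rna14-1*, with -0.14 in *rna15-1*, and the convergent *RNA1*, for the activator of the yeast Ran GTPase, had -0.27 in *rna14-1* and -0.02 in *rna15-1* and did not pass. Without *rna15-1* replicate 3, *CSI2* had 0.39 and *RNA1* 0.13 in *rna15-1*, both with the sign turned, and *RPB11* had -0.23 and no longer passed (adjusted p = 0.015, limma). Among neighbours that did not pass, leaving it out also moved the *rna15-1* value of *MSK1* to -0.16, of *RRP45* to 0.25, of *TRI1* to -0.21 and of *YLR154C-H* to 0.66. Whether neighbouring transcription bears on any of the 6 genes was not tested.

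**Figure D3:**
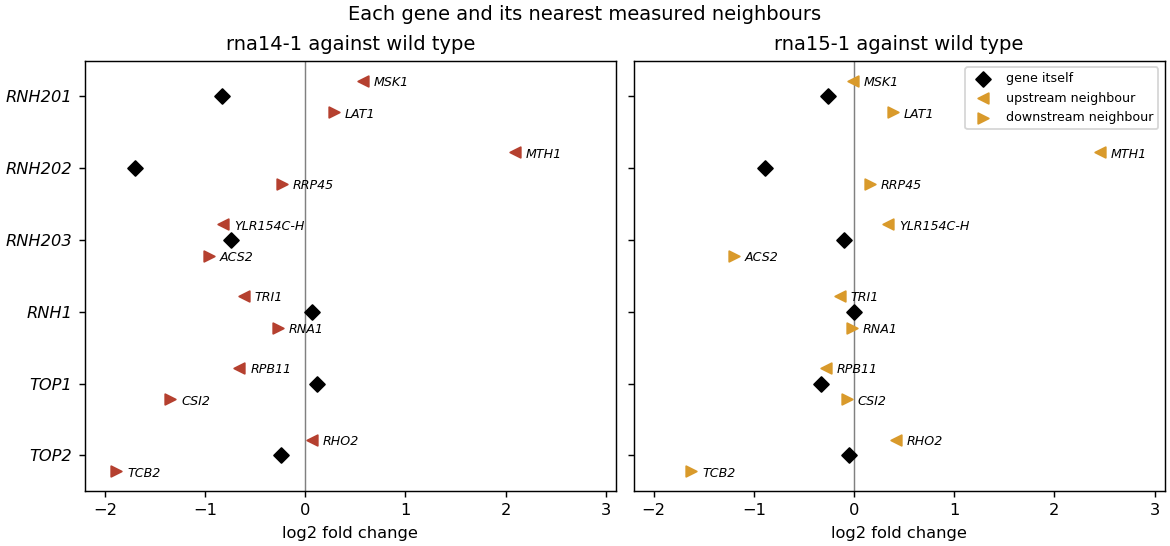
Log2 fold change against the wild type in *rna14-1* (left) and *rna15-1* (right) of each gene (diamond) and of its nearest measured neighbour upstream and downstream (triangles). *MTH1* beside *RNH202* and *TCB2* beside *TOP2* moved most, and for no gene did it and both of its neighbours pass the test in 1 direction.

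Other genes of the same pathways were counted in lists chosen by function, with the shares of all genes that rose and fell, given above, as the background. There were 8 genes for other topoisomerases and their partners. In *rna14-1*, 1 of them rose and 4 fell (median log2 fold change -0.43), and in *rna15-1*, 2 rose and 4 fell (median -0.21). *SPO11*, which encodes the topoisomerase relative that breaks DNA in meiosis, rose in both mutants, with 4.66 ± 0.38 in *rna14-1* and 2.90 ± 0.38 in *rna15-1*. Without *rna15-1* replicate 3 the latter was 2.31. On the wild-type arrays *SPO11* lay 1.06 to 1.99 log2 units above background. *TOF1* and *TOF2*, genes of proteins that bind Top1, each fell in both mutants, *TOF1* with -0.98 for *rna14-1* and -0.87 for *rna15-1* and *TOF2* with -0.89 for *rna14-1* and -0.55 for *rna15-1*. *TOP3*, the gene of the topoisomerase that works with the helicase Sgs1, fell by 2.56 ± 0.21 in *rna15-1*, with -0.63 ± 0.21 in *rna14-1* (adjusted p = 0.020, limma), and it was lower in *rna15-1* than in *rna14-1* (-1.93 ± 0.24, adjusted p = 1.2e-04). On the *rna15-1* arrays *TOP3* lay only 0.92 to 2.05 log2 units above background, so the size of its change rests on low values. *SGS1* fell by 0.77 in *rna14-1* and fell by 1.03 in *rna15-1*.

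The repair of trapped topoisomerase was represented by 9 genes. In *rna14-1*, 4 of these rose and 2 fell (median 0.20), and in *rna15-1*, 3 rose and 1 fell (median 0.10). *TDP1*, the gene of the phosphodiesterase that takes Top1 off the DNA end, fell by 1.18 ± 0.12 in *rna14-1* (adjusted p = 5.7e-06, limma) and fell by 0.88 ± 0.12 in *rna15-1* (adjusted p = 7.1e-05). The nuclease gene *MUS81* rose in both mutants, with 2.09 ± 0.16 in *rna14-1* and 1.58 ± 0.16 in *rna15-1*. *RAD10* also rose in each, with 0.48 for *rna14-1* and 0.50 for *rna15-1*. The nuclease scaffold gene *SLX4* rose by 1.37 ± 0.15 in *rna14-1*, with 0.50 in *rna15-1* (adjusted p = 0.015), or 0.33 without *rna15-1* replicate 3.

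The excision of ribonucleotides after the cut by RNase H2 is completed by polymerases, flap nucleases and a ligase, of which 9 genes were read. In *rna14-1*, 2 rose and 4 fell (median -0.24), and in *rna15-1*, 1 rose and 3 fell (median -0.13). After quantile normalisation or a median shift, 6 fell in *rna14-1*. *POL2*, for the catalytic subunit of DNA polymerase epsilon, fell by 1.25 ± 0.16 in *rna14-1*, with -0.35 in *rna15-1* (adjusted p = 0.071, limma), or -0.13 without *rna15-1* replicate 3. *POL3*, for that of DNA polymerase delta, had -0.70 in *rna14-1* and -0.72 in *rna15-1* and passed in both. *RFC1*, for the large subunit of the clamp loader, fell by 0.40 in *rna14-1* and fell by 0.74 in *rna15-1*. The nuclease gene *EXO1* fell by 1.16 in *rna14-1* and fell by 1.08 in *rna15-1*. *CDC9*, for DNA ligase I, rose by 1.19 ± 0.12 in *rna14-1*, with -0.13 in *rna15-1* (adjusted p = 0.36), or -0.28 without *rna15-1* replicate 3.

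**Figure D4:**
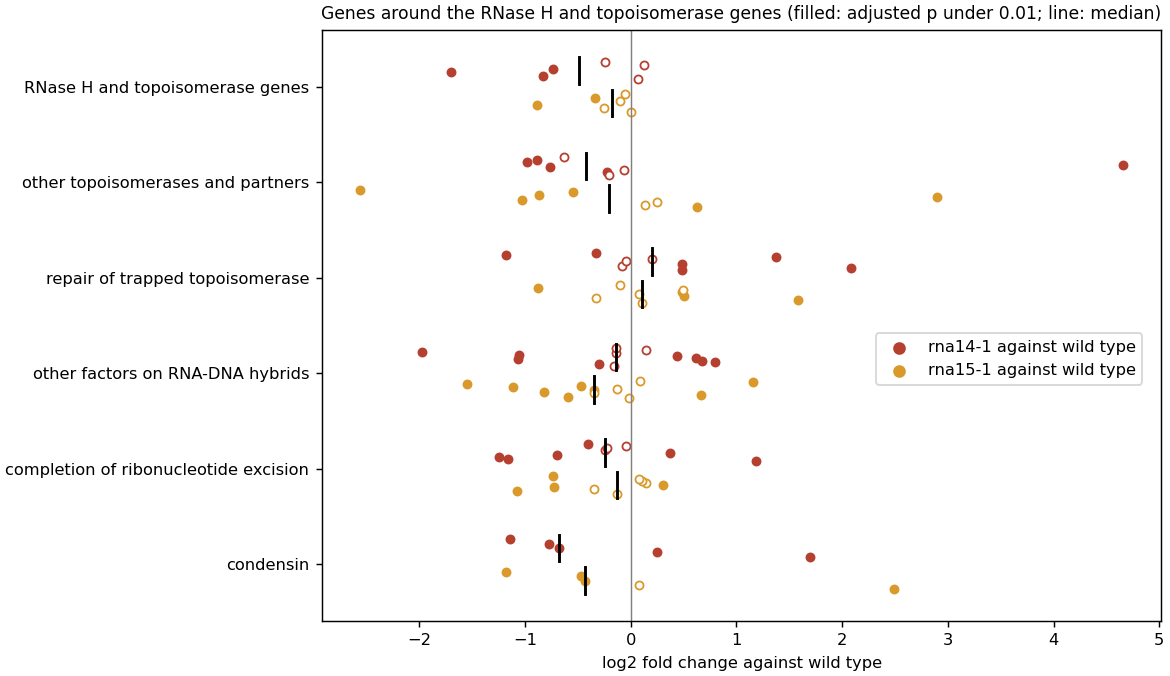
Log2 fold change against the wild type of the 6 genes and of the genes of 5 lists around them, with *rna14-1* above *rna15-1* in each row. Filled points have an adjusted p under 0.01 and the black lines are medians, which in *rna14-1* lie between -0.68 for condensin and 0.20 for the repair of trapped topoisomerase.

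The products of 12 other genes act on RNA-DNA hybrids or keep them from forming. In *rna14-1*, 4 of these genes rose and 4 fell (median -0.14), and in *rna15-1*, 2 rose and 6 fell (median -0.34), or 8 without replicate 3. *THO2*, the gene of a subunit of the THO complex of mRNP assembly, fell by 1.97 ± 0.13 in *rna14-1* and fell by 1.55 ± 0.13 in *rna15-1*. *THP2*, the gene of another THO subunit, rose by 1.16 ± 0.15 in *rna15-1*, with 0.15 in *rna14-1* (adjusted p = 0.39, limma). *RRM3*, for a helicase that helps forks past protein barriers, fell in each mutant, with -1.05 for *rna14-1* and -1.11 for *rna15-1*. So did *NPL3*, for an mRNA-binding protein, with -1.07 for *rna14-1* and -0.82 for *rna15-1*. The related helicase gene *PIF1*, named here after its values were seen, rose by 0.61 ± 0.08 in *rna14-1* and fell by 0.34 ± 0.08 in *rna15-1*.
Condensin compacts chromosomes together with Top2. Of its 5 genes, in *rna14-1* 2 rose and 3 fell (median -0.68), and in *rna15-1* 1 rose and 3 fell (median -0.43). *YCS4* fell by 1.14 in *rna14-1* and fell by 1.18 in *rna15-1*, and *YCG1* fell by 0.78 in *rna14-1* and fell by 0.47 in *rna15-1*. *BRN1* rose in each mutant, with 1.70 ± 0.13 for *rna14-1* and 2.49 ± 0.13 for *rna15-1*. On the 5 wild-type arrays it lay only 0.066 to 0.565 log2 units above background, and its mean log2 intensity A of 5.80 was under the 7 that the methods ask for, so the size of its change rests on a level near background. After quantile normalisation *BRN1* had 0.68 in *rna14-1* (adjusted p = 0.020, limma), and none of the 5 genes rose there.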

How the data were processed

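Per the methods and the submitters' processing notes, the authors used GCOS for the scans, RMA for the values and limma for the comparisons, and versions are not given in the sources used here. The deposited values are log2 intensities normalised over all arrays and were not normalised again. No genome build is named, so no coordinates are given. The platform's annotation gives 1 gene to 7244 of 10928 probe sets, several to 1 and none to 3683. Those with a gene in the R64 table (5498) were tested as 5449 genes, by the brightest probe set for the 47 genes with several. The 95th percentile of the 1746 other named probe sets, between 4.19 and 4.44, was taken as background, and every array of the 6 genes lay above it.

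All arrays entered 1 limma model (limma 3.58.1, R 4.3.3; lmFit, then eBayes) with a coefficient for each strain, and p-values were adjusted over all genes. The number of arrays limits the precision. The fit was tested on simulated data. Drawing was done with matplotlib 3.10.9 on Python 3.11.15.

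The members, lists and tests were chosen with earlier results of these data known. *REX1* of the lists was read under its current name *RNH70*. Besides the 6 genes, the text names for each list and mutant up to 3 genes with the largest change and an adjusted p under 0.01, the nearest measured neighbours, and the 2 genes most like each member by Pearson's r. Alternatives concerned which wild-type arrays, strains and probe sets were used, the normalisation, the filter on A, the eBayes settings, the threshold and the replicate block, and each array was left out in turn. Values of the other named genes without *rna15-1* replicate 3 were added after the data were seen.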

Additional observations from a re-analysis of the deposited data

Results flagged for a closer look

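In 4 of the 6 genes the effect of *rna15-1* differed from that of *rna14-1* by limma's test of the difference itself, with log2 differences of 0.57 for *RNH201*, 0.81 for *RNH202*, 0.64 for *RNH203* and -0.46 for *TOP1* (*rna15-1* minus *rna14-1*, adjusted p under 0.01 each). By the same test 16.0% of all genes were higher and 16.5% lower in *rna15-1*, and with the replicate block *RNH202* and *TOP1* no longer passed (adjusted p = 0.018 and 0.020). Of the 48 other genes named, 22 passed this test. Many of them were named for their change or pattern in these same data, so this count cannot be set against those shares. Without *rna15-1* replicate 3, *TRI1* did not pass (0.40, adjusted p = 0.021). Newly past the threshold were *MUS81* (-0.75), *THO2* (0.60), *TDP1* (0.47), *RNA1* (0.40) and *ERV46* (0.64), with adjusted p = 1.4e-04 to 0.0012 (limma). Over all genes, 1322 were then higher and 1215 lower in *rna15-1*, against 870 and 900 with all arrays. With all arrays, the difference in the lists around the 6 genes was -1.76 for *SPO11* (-2.34 without *rna15-1* replicate 3), -1.93 for *TOP3*, -0.87 for *SLX4*, 1.01 for *THP2*, -0.96 for *PIF1*, 0.90 for *POL2*, -1.32 for *CDC9*, 0.79 for *BRN1* and 0.31 for *YCG1*. Among the neighbours it was 0.47 for *TRI1*, -0.59 for *MSK1*, 0.39 for *RRP45*, 1.27 for *CSI2*, 0.37 for *RPB11* and 0.35 for *RHO2*. Among the genes chosen for a pattern like that of a member, so that their difference is only a description, it was 0.75 for *NOB1*, 0.72 for *RFU1*, 0.50 for *ARF3*, 0.63 for *YGL185C*, 0.81 for *HCM1*, -1.71 for *ADI1* and -0.65 for *GPI18*.

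In the 5 wild-type arrays, 1 array stood far from the others for *RRM3*, where replicate 3 was 0.26 below the nearest other array at 9.26 (a gap of 0.799 of the whole range), and for *RNA1*, where replicate 5 was at 11.91 and the nearest other at 11.78 (0.724 of the range). Chance alone puts about 1 in 20 genes past this limit, and 2 of 54 examined were. None of the 6 genes was among them.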

How the results depend on the processing

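In *rna14-1*, the 3 RNase H2 genes kept a decrease past the threshold under every alternative tried, with log2 fold changes of -2.07 to -1.48 for *RNH202*, -0.91 to -0.78 for *RNH201* and -0.86 to -0.66 for *RNH203*. The number of calls at the methods' thresholds there, 1 with all arrays, was 0 against wild-type replicates 1 and 2 only and 0 with the replicate block. In *rna15-1*, of the 2 genes past the adjusted p, 1 was left against wild-type replicates 1 to 3 only, 1 against replicates 3 to 5 only, 1 with all probe sets in 1 fit, 0 against replicates 1 and 2 only and 0 with the replicate block. Leaving out 1 array gave 1 to 2 genes in *rna15-1*, 3 in *rna14-1* throughout, and 2 to 4 between the mutants. Between the mutants, the 4 genes became 2 with only those strains in the fit and 2 with the replicate block. In both fits *RNH202* (0.81) and *TOP1* (-0.46) had the same size, and their adjusted p lay between 0.018 and 0.020. Of 432 values of single genes under alternatives, 407 kept their side of the threshold, 24 lost it and 1, *RNH201* in *rna15-1* at an adjusted p under 0.05, passed it. No called value changed direction.

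Same-numbered arrays of different strains are not paired by the labels. Their deviations from the strain means correlated with r over 0.1 in 3 of 9 pairs (-0.14 to 0.34), and an array correlated best with its own number in 6 of 18 cases, so the numbers were not treated as pairs. Background correction was not varied. The number of arrays per strain limits every p-value given.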
